A study of Mus musculus with 10 samples.

Results

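The genes described here are the 10 of fatty acid synthesis and desaturation named by the symbols Acly, Acaca, Fasn, Scd1, Scd2, Elovl1, Elovl5, Elovl6, Fads1 and Fads2, out of 26264 genes with a level in every library. All 10 were found by symbol, all 10 were among the 12751 genes tested, and all 10 are in the authors' deposited table of diet differences. RNA came from C57BL6 mouse brain cells sorted for CD31, a surface protein of endothelium, after removal of meninges, cerebellum and olfactory bulbs. The control group ate control diet and the other group ate diet with PLX5622 at 1200 ppm, each for 1 month, with 3 male and 2 female libraries per diet, labelled as biological replicates. PLX5622 inhibits CSF1R, a receptor that microglia need to survive, so the comparison addresses what brain endothelium does when microglia are depleted. The compound reached the whole animal, and its actions on endothelium cannot be told apart from those of microglial loss in this design. The ages of the mice were not given in the sources used here.

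Fatty acids are built in the cytosol from acetyl-CoA. Acly, the ATP citrate lyase, cleaves citrate to give acetyl-CoA, Acaca carboxylates it to malonyl-CoA, and Fasn, the fatty acid synthase, assembles palmitate from both. Elongases of the Elovl family then lengthen the chain in the endoplasmic reticulum, and Scd desaturases put a double bond into saturated chains to make oleate and palmitoleate. The Fads desaturases and Elovl5 act on dietary fatty acids in some of the steps that lead to arachidonate and docosahexaenoate. In many tissues the sterol regulatory element-binding proteins, encoded by Srebf1 and Srebf2, drive the transcription of these genes, and liver X receptors raise Srebf1 and Scd1. Brain endothelium also takes up polyunsaturated fatty acids from blood and passes them to the brain.

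Fasn and Elovl5, described below, had libraries of the diets that did not overlap, in opposite directions. The 250 bases before the transcription start of each are shown for this reason, 5′ to 3′, from RefSeq on GRCm38.p6, which is another build than the mm39 used for the deposited values. Capitals mark the searched motifs.
Fasn, minus strand, chr11:120824548-120824797: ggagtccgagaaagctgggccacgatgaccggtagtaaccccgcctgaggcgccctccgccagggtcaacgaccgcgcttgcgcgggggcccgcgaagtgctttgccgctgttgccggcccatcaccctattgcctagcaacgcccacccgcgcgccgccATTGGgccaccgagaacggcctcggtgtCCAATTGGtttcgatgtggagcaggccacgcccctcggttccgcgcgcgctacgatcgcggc
Elovl5, plus strand, chr9:77917115-77917364: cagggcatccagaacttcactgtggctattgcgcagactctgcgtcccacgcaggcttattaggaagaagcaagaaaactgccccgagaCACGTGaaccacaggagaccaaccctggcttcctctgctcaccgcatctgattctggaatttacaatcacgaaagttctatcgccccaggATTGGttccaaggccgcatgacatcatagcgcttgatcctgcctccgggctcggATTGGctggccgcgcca

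The Fasn window holds the NF-Y box CCAAT 3 times on either strand, starting 90, 62 and 59 bases before the start, the last 2 of which overlap. The Elovl5 window holds it 2 times, starting 71 and 17 bases before the start, and also 1 E-box, CACGTG, starting 161 bases before it. CCAAT was in 33.8% and CACGTG in 6.02% of 32851 promoter windows of the same length, both strands searched. Of the 8 windows of members, CCAAT was in 3, those of Fasn and Elovl5 and 1 of Elovl1. The GC box GGGCGG, found in 32.7% of windows, was in those of Acly, Elovl1 and Fads2 and in neither of the printed ones. The sterol regulatory element letters TCACNCCAC, in 1.05% of windows, and a pair of AGGTCA half-sites 4 bases apart, in 0.0152%, were in none of the 8 windows of members. The table held windows for 7 of the 10 genes, and Scd1, Scd2 and Fads1 have no entry. A match is a description of the letters only.

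On control diet the 10 genes spanned a wide range of TPM (reads divided by gene length, with every library brought to an equal sum), a scale on which levels of different genes can be compared. Elovl5 stood highest at 134 ± 7.99 TPM (SD, n = 5), above 89.4% of tested genes. Scd2 at 97.5 ± 10.2 TPM, Acly at 96.9 ± 8.17 TPM and Elovl1 at 91.4 ± 5.55 TPM (SD, n = 5 each) followed, and their ranges overlapped, so that their order is not resolved. Fads1 came next at 37.0 ± 3.93 TPM, apart from its neighbours on either side. Acaca at 9.82 ± 0.861, Fasn at 9.38 ± 1.25, Fads2 at 8.73 ± 2.85 and Scd1 at 6.39 ± 0.603 TPM formed a lower group, in which each neighbouring pair overlapped. Elovl6 was lowest at 1.00 ± 0.193 TPM, above 0.839% of tested genes, from 49 to 117 reads per library over both diets. The mouse has further members of these families, and the elongase Elovl7 was also abundant at 93.4 ± 5.34 TPM on control diet. Scd3, Scd4, Elovl2, Elovl3, Elovl4 and Fads6 had control means of at most 0.699 TPM, so Scd2 supplied most of the stearoyl-CoA desaturase transcript and Scd1 only a small part.

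**Figure D1:**
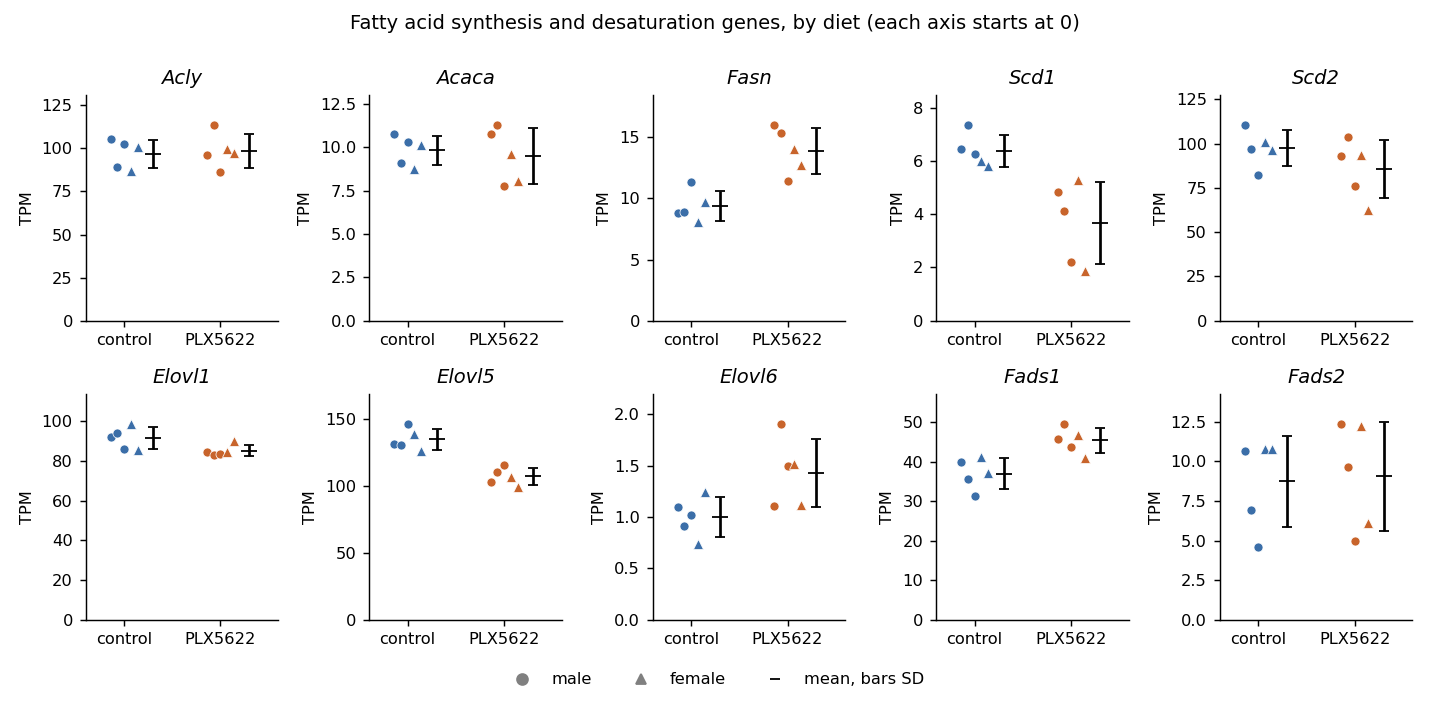
TPM of each of the 10 genes in every library, by diet; circles are males, triangles females, and the black mark with bars is the mean ± SD of 5 libraries. All PLX5622 libraries lie above all controls for Fasn and below them for Elovl5 and Scd1, while the diets overlap for the other 7 genes.

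No member passed the limma test over all genes between the diets. The background was 17 of 12751 tested genes (0.133%). At an unadjusted limma p under 0.05 there were 4 members, Fasn and Fads1 higher and Elovl5 and Scd1 lower on PLX5622, against a background of 8.31% of tested genes. In 3 members the diets did not overlap, against 1.8% of tested genes. The authors' deposited DESeq2 table, made from counts, called 3 members, Fasn and Fads1 higher and Elovl5 lower, where it called 0.596% of its 19474 genes. Over the 10 members the log2 fold change had a median of -0.01, with 5 above 0 and 5 below 0, and that of all tested genes was -0.02. In bulk RNA of sorted cells, fewer cells of a type and less RNA per cell cannot be told apart.

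**Figure D2:**
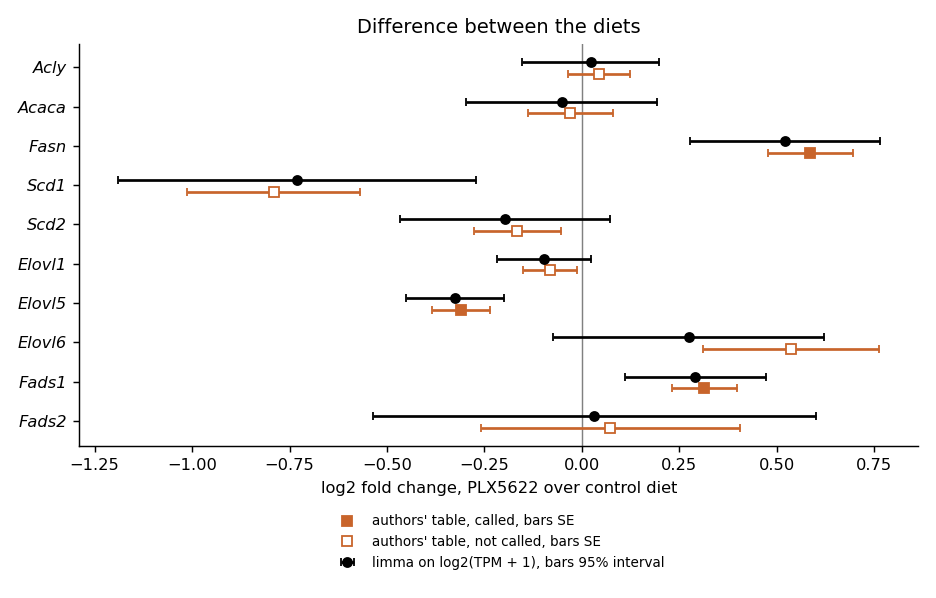
Log2 fold change of PLX5622 over control diet for each gene, from limma on log2(TPM + 1) with 95% confidence intervals (black) and from the authors' deposited DESeq2 table with standard errors (orange, filled where the authors' table called the gene). Scd1 and Fasn lie farthest from 0 in opposite directions, and the authors' table called Fasn, Fads1 and Elovl5.

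The genes that supply carbon differed between the diets by less than their spread. Acly ranged from 87.0 to 105 TPM on control diet and from 86.1 to 114 TPM on PLX5622, with a limma log2 fold change of 0.02 (95% confidence interval -0.15 to 0.20). Acaca ranged from 8.72 to 10.8 TPM and from 7.75 to 11.3 TPM, at -0.05 (-0.30 to 0.19). PLX5622 male 2 was the highest library for both genes and PLX5622 male 3 the lowest. The gene Tada2a overlaps Acaca in the RefSeq annotation, and in these unstranded libraries reads of overlapping genes are not told apart by strand.

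Fasn, which assembles palmitate, lay higher on PLX5622. In the control males it stood at 8.80, 8.92 and 11.4 TPM and in the control females at 8.10 and 9.71 TPM. In the PLX5622 males it stood at 16.1, 15.3 and 11.4 TPM and in the PLX5622 females at 14.0 and 12.7 TPM. Every PLX5622 library lay above every control library, by a narrow margin between PLX5622 male 3 and control male 3, at 11.42 against 11.36 TPM. The means were 9.38 ± 1.25 and 13.9 ± 1.88 TPM (SD, n = 5 each), a ratio of 1.48. The limma log2 fold change was 0.52 ± 0.11 (SE, adjusted p = 0.215), and the authors' deposited table gave 0.59 ± 0.11 (SE) with a DESeq2 adjusted p of 6.48e-05. Fasn passed limma's threshold with voom on recovered reads (0.59, adjusted p = 0.0198) and with library weights (0.59, adjusted p = 0.0467), and in none of the 10 limma fits that left out 1 library (adjusted p 0.0728 to 0.492).

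Both stearoyl-CoA desaturases had fold changes below 0, unlike Fasn, and of the Scd1 and Scd2 genes only Scd1 separated the diets. Scd1 stood at 6.46, 7.37 and 6.27 TPM in the control males and at 6.01 and 5.82 TPM in the control females. On PLX5622 it stood at 4.85, 4.105 and 2.21 TPM in the males and at 5.28 and 1.86 TPM in the females. All PLX5622 libraries lay below all controls, and PLX5622 male 3 and PLX5622 female 2 lay far below the other 3, from 117 and 88 reads. The means were 6.39 ± 0.603 and 3.66 ± 1.55 TPM (SD, n = 5 each). The limma log2 fold change was -0.73 ± 0.21 (SE, adjusted p = 0.369), and the authors' deposited table gave -0.79 with a DESeq2 adjusted p of 0.0579, just outside its threshold. Without both of these low libraries, a choice made after their values were seen, it was -0.37 (limma adjusted p = 0.529). With a pseudocount of 5 in place of 1 it was -0.41.

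Scd2, the paralog that makes up most of the desaturase transcript, was less separated. It stood at 111, 97.0 and 82.6 TPM in the control males and 101 and 96.2 TPM in the control females, against 93.1, 104 and 76.1 TPM in the PLX5622 males and 93.5 and 62.5 TPM in the PLX5622 females. The diets overlapped, and PLX5622 male 3 and PLX5622 female 2, the lowest for Scd1, were again the lowest. Its limma log2 fold change was -0.20 (95% confidence interval -0.47 to 0.07), and it was -0.08 without PLX5622 female 2 and -0.0059 without both of these libraries. Scd1 made up 6.19 ± 0.794% of the summed Scd1 and Scd2 TPM in controls and 3.96 ± 1.16% in PLX5622 libraries (SD, n = 5 per diet), and the diets did not overlap in this share. The Scd genes are close paralogs, and how reads matching more than one of them were counted was not given in the sources used here.

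**Figure D3:**
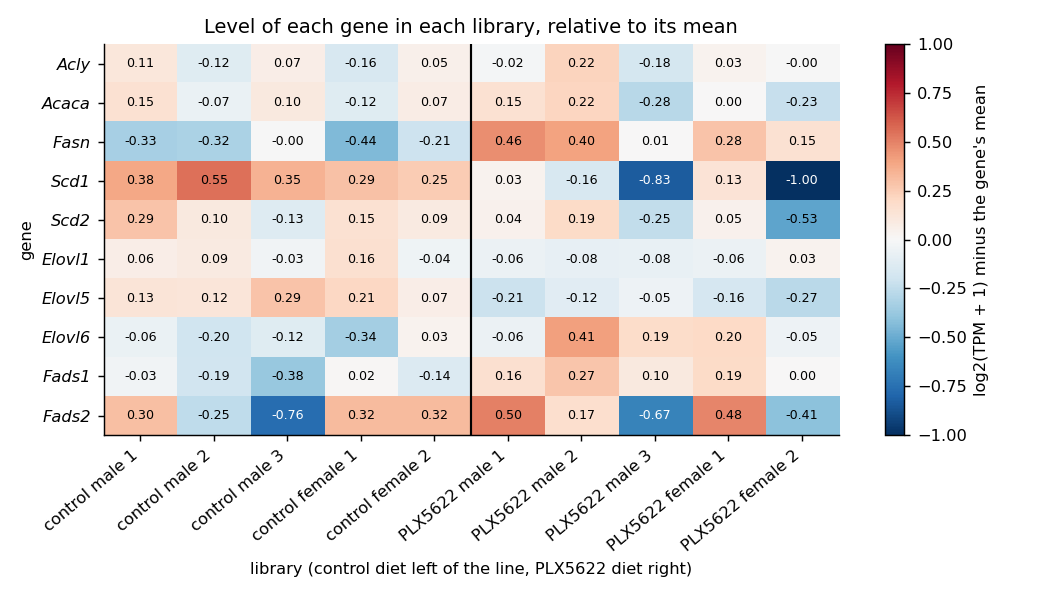
Level of each gene in each library as log2(TPM + 1) minus that gene's mean over the 10 libraries, with control libraries to the left of the line. Scd1 is lowest in PLX5622 female 2 (-1.0) and PLX5622 male 3 (-0.83), and Fads2 is lowest in control male 3 (-0.76) and PLX5622 male 3 (-0.67).

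The elongases lay on both sides of 0. Elovl5, which lengthens polyunsaturated chains, stood at 131, 131 and 146 TPM in the control males and 138 and 126 TPM in the control females. On PLX5622 it stood at 103, 111 and 115 TPM in the males and 107 and 99.3 TPM in the females. All PLX5622 libraries lay below all controls, and the spread within each diet was small, at coefficients of variation of 5.94% and 5.87%. The means were 134 ± 7.99 and 107 ± 6.29 TPM (SD, n = 5 each). The limma log2 fold change was -0.33 ± 0.06 (SE, adjusted p = 0.0777), the smallest adjusted p of the 10, and the authors' deposited table gave -0.31 with a DESeq2 adjusted p of 0.010. With library weights the limma adjusted p was 0.0467, and without any 1 library it ran from 0.0728 to 0.214.

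Elovl6, which extends palmitate to stearate, stood at 1.10, 0.911 and 1.02 TPM in the control males and 0.733 and 1.24 TPM in the control females. On PLX5622 it stood at 1.11, 1.91 and 1.49 TPM in the males and 1.51 and 1.12 TPM in the females. The diets overlapped, with 3 PLX5622 libraries above all controls. The limma log2 fold change was 0.27 ± 0.16 (SE, adjusted p = 0.725), a scale that understates differences of so low a gene, and the authors' deposited table gave 0.54 ± 0.23 (SE) with a DESeq2 adjusted p of 0.535. Elovl6 reached the level required for testing in all 5 PLX5622 libraries and in 3 of the controls. Elovl1, which makes very long saturated chains, ranged from 85.6 to 98.8 TPM on control diet and from 83.1 to 90.2 TPM on PLX5622, with 4 of 5 PLX5622 libraries below all controls, and its limma log2 fold change was -0.10 (95% confidence interval -0.22 to 0.02). In the RefSeq annotation Elovl1 overlaps Cdc20, Elovl5 overlaps Gm34771 and Elovl6 overlaps Gm35986.

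Of the front-end desaturases of polyunsaturated fatty acids, Fads1 was higher on PLX5622 and Fads2 varied within both diets. Fads1 stood at 39.8, 35.5 and 31.2 TPM in the control males and 41.3 and 37.0 TPM in the control females, against 45.7, 49.6 and 43.7 TPM in the PLX5622 males and 46.7 and 41.0 TPM in the PLX5622 females. The diets overlapped only through PLX5622 female 2, which lay below control female 1, at 40.95 against 41.25 TPM. The limma log2 fold change was 0.29 ± 0.08 (SE, adjusted p = 0.365), and the authors' deposited table gave 0.31 with a DESeq2 adjusted p of 0.0373.

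Fads2 stood at 10.6, 6.93 and 4.57 TPM in the control males and 10.8 and 10.8 TPM in the control females, against 12.4, 9.61 and 4.94 TPM in the PLX5622 males and 12.2 and 6.12 TPM in the PLX5622 females. Control male 3, PLX5622 male 3 and PLX5622 female 2 were the lowest, and the coefficients of variation were 32.6% on control diet and 37.8% on PLX5622. The limma log2 fold change was 0.03 (95% confidence interval -0.54 to 0.60), and it changed sign in 5 of the 10 fits that left out 1 library. The summed TPM of 10 astrocyte markers, none of them at 0 in any library, was 130 to 177 on control diet and 105 to 209 on PLX5622, and PLX5622 male 3 and control male 3 were the lowest at 105 and 130, while PLX5622 female 2 stood at 166. Single astrocyte markers differed in these libraries: Aqp4, a water channel, was lowest in the same 3 libraries, at 2.19, 1.54 and 2.45 TPM, whereas Gja1, a gap junction gene, was highest of all 10 libraries in PLX5622 female 2 at 74.9 TPM. Both markers were named after their values were seen. The part of astrocyte RNA in the Fads2 values was not tested.

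Differences between genes within a library were compared in 4 pairs by an exact test that permutes the diets over the 10 libraries, ignoring sex. The pairs were drawn up with earlier results of these data known. Each of the 4 holds a gene already seen to differ, namely Scd1, Elovl5, Fasn or Fads1. Scd1 minus Scd2 was -3.73 ± 0.18 in controls and -4.27 ± 0.29 in PLX5622 libraries on the log2(TPM + 1) scale (SD, n = 5 per diet, exact permutation p = 0.00794, two-sided, adjusted over 4 pairs 0.0106). Scd1 was thus lower relative to its paralog in 5 of 5 PLX5622 libraries than in any control, by a narrow margin between PLX5622 female 1 and control male 1, at -3.912 against -3.906. This p is the smallest that this test can give, and Scd1 alone already separated the diets, so it adds no separate support. Elovl6 minus Elovl5 was -6.09 ± 0.19 in controls and -5.49 ± 0.15 in PLX5622 libraries (SD, n = 5 per diet). The diets did not overlap in this pair. It is a description only, since Elovl5 alone already separated the diets and Elovl6 lay near the level required for testing. Fasn minus Scd1 was 0.49 ± 0.21 and 1.74 ± 0.38 (SD, n = 5 per diet), which is a description only, since each gene alone already separated the diets, in opposite directions. Fads1 minus Fads2 was 2.02 ± 0.35 and 2.28 ± 0.47 with overlapping diets (SD, n = 5 each, exact permutation p = 0.294). The difference between the diets for Scd1 and Scd2 was -0.53, and with a pseudocount of 5 it was -0.22 (exact permutation p = 0.0635, adjusted 0.0847). Fasn minus Scd1 differed between the diets by 1.25, and by 0.806 with that pseudocount.

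**Figure D4:**
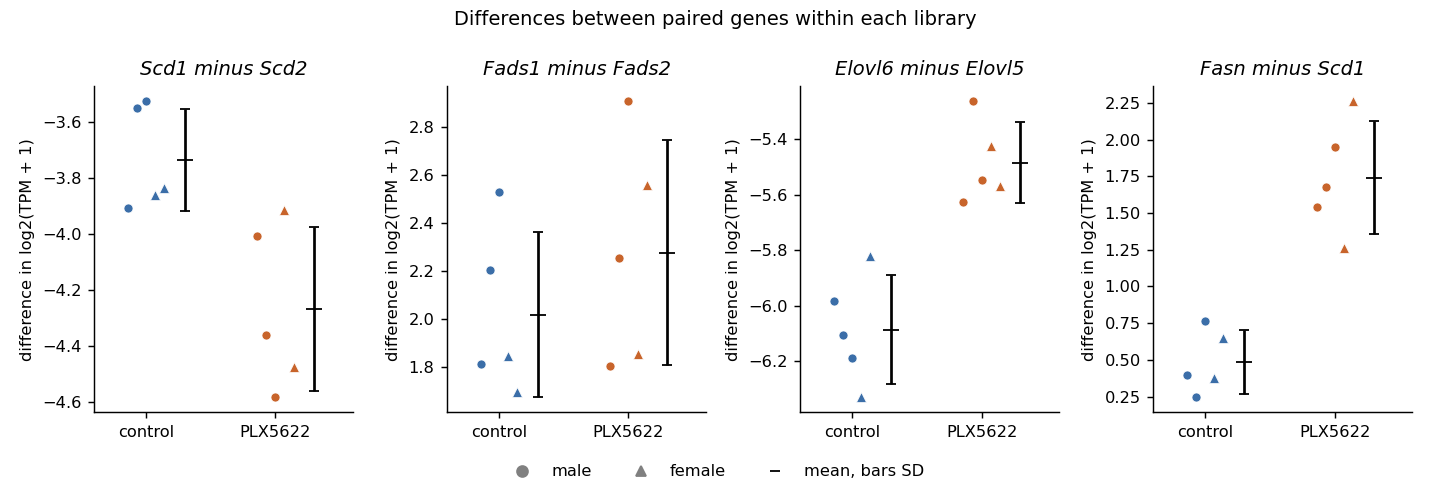
Difference in log2(TPM + 1) between the genes of each pair within every library, by diet; circles are males, triangles females, and the black mark with bars is the mean ± SD of 5 libraries. The diets do not overlap for Scd1 minus Scd2, Elovl6 minus Elovl5 and Fasn minus Scd1, and they overlap for Fads1 minus Fads2.

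No member differed between the sexes in limma, where 8 of 12751 genes (0.0627%) were called, and none was called for a different response to diet by sex, where 0 genes (0%) were called and 312 had an unadjusted p under 0.05. The same test by voom found 0. With all 10 libraries in the fit, the limma log2 fold change of Fasn was 0.51 in males and 0.54 in females, Scd1 at -0.75 and -0.71, and Elovl5 at -0.31 and -0.35. Fads1 was at 0.38 in males and 0.16 in females, and Scd2 at -0.09 and -0.36, with limma adjusted p of 0.999 for the interaction of each of these 5 genes.

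Other steps of fatty acid metabolism were set against the background of 17 of 12751 tested genes (0.133%) called in limma. At this share, an absence of calls in a short list is no result about its genes. Among 14 other genes of elongation and desaturation 8 were tested and none passed in limma. They included Tecr, the reductase that ends each elongation cycle, at 181 ± 8.36 and 214 ± 20.7 TPM (SD, n = 5 each, limma log2 fold change 0.23, adjusted p = 0.272), and Elovl7 at -0.21. None of 9 genes of precursor supply passed, among them Slc25a1, the mitochondrial citrate carrier, at 0.05, Acacb, the acetyl-CoA carboxylase at mitochondria, at 0.09, and Aacs, an acetoacetyl-CoA synthetase, at 0.36 (limma adjusted p = 0.49). Of 6 genes of mitochondrial fatty acid synthesis 5 were tested and none passed, among them Mecr at -0.10 and Ndufab1 at 0.03.

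Of 21 regulators of lipogenesis 18 were tested, and 2 rose in limma while none fell, against 17 of 12751 tested genes called (0.133%). These were Insig1, which holds sterol regulatory element-binding proteins in the endoplasmic reticulum, at 0.64, and Srebf2 at 0.48, both also called higher in the authors' deposited table. Srebf1, the gene of the family most tied to fatty acid synthesis, stood at 52.5 ± 2.09 and 59.4 ± 5.42 TPM (SD, n = 5 each), a limma log2 fold change of 0.17 (adjusted p = 0.503). The liver X receptor genes Nr1h2 and Nr1h3 were at 0.06 and 0.04, and neither passed limma. Srebf1, Nr1h2 and Nr1h3 were named after their values were seen.

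Against 0.133% of all tested genes called, none of 18 genes of beta-oxidation passed in limma. They had 4 members above 0 and 14 below 0, within -0.12 to 0.10 on the log2 scale, with a median of -0.02. Of all tested genes 5655 lay above 0 and 7096 below 0. Cpt1a, which admits fatty acids to mitochondria, stood at 196 ± 11.6 and 196 ± 27.8 TPM (SD, n = 5 each), and Etfb, an electron carrier of beta-oxidation, was at a limma log2 fold change of 0.10. Against the same share, none of 11 genes that place fatty acids in glycerolipids passed in limma. Among them were the acyltransferases Agpat1 at -0.17 and Agpat3 at -0.04. In 1 of the 11, Agpat1, the diets did not overlap, against 1.8% of tested genes. Agpat1 ranged from 95.2 to 104 TPM on control diet and from 84.4 to 94.2 TPM on PLX5622 (limma adjusted p = 0.377). Lpin1, a phosphatidate phosphatase, was at 0.36 (limma adjusted p = 0.35) and was called higher in the authors' deposited table (DESeq2 adjusted p = 0.0122).

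The libraries carried 26435152 to 61540136 recovered reads, and members had 88 to 11419 reads per library apart from Elovl6. The endothelial label held, with 10 endothelial markers summing to 20813 to 21499 TPM on control diet and 20788 to 21738 TPM on PLX5622. Oligodendrocytes express several members strongly, and of 10 of their markers Opalin was at 0 in every library, Mbp was at most 0.519 TPM, and Mal alone gave 280 to 396 TPM of a sum of 301 to 417 TPM. Summed TPM of 13 microglial markers was 53.7 to 189 on control diet and 40.1 to 46.7 on PLX5622, and Cx3cr1, C1qc, Trem2, Aif1 and Fcrls were at 0 in all 5 PLX5622 libraries. Control female 1 held Csf1r at only 0.0689 TPM and Cx3cr1 at 0, and it held Fasn at 8.10, Elovl5 at 138 and Scd1 at 6.01 TPM. It held Fads1 at 41.25 TPM, the highest of the controls and above PLX5622 female 2 at 40.95 TPM. The part of microglial RNA in the members' values was not tested. Summed TPM over 7 markers of oligodendrocyte precursors, 8 of pericytes, 6 of smooth muscle, 8 of neurons and 6 of fibroblasts overlapped between the diets.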

How the data were processed

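Polyadenylated RNA was made into unstranded libraries, per the labels' protocols. Reads were aligned to mm39 with STAR 2.7.10a, counted with featureCounts of Subread 2.0.1 and compared in DESeq2 1.32.0 under R 4.1.0, as the submitters' processing notes list. Values deposited by the authors are TPM per library and a table with log2 fold changes and their errors, p-values, adjusted p-values, and mean counts and test statistics, which are treated as scores. Its model formula was not given in the sources used here.

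TPM was tested on a log2(TPM + 1) scale with limma 3.58.1 under R 4.3.3, in genes at 1 TPM or more in at least 5 of 10 libraries, with variance trend, a model of sex plus diet, two-sided p adjusted by Benjamini-Hochberg over 12751 genes and a threshold of 0.05. The test was checked on simulated data. Exact permutation tests, motif searches and figures used Python 3.11.15, numpy 2.4.6, pandas 2.3.3 and matplotlib 3.10.9. Whole reads were recovered from TPM and the deposited mean counts: all values (100%) were whole within 0.05 reads, for 19474 genes. They serve depth and the voom alternative, since TPM keeps no depth. A total of 24 alternatives were planned and 1 was added after the data were seen.

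Members, gene lists and pairs were chosen with earlier results of these data known. Beside the 10 members, the text names up to 4 called genes of each of 6 pathway lists or, where none was called, the 2 most abundant and the one with the lowest p, except for a gene not reported here. Fads6, Scd3, Scd4, Elovl2, Elovl3, Elovl4, Tada2a, Cdc20, Srebf1, Nr1h2 and Nr1h3 are named beside them. Markers were fixed by hand.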

Additional observations from a re-analysis of the deposited data

Results flagged for a closer look

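Elovl1 in PLX5622 female 2 stood apart from the other libraries of its diet, at 90.2 TPM against 83.1 to 84.7 TPM. Its gap to the nearest library was 0.775 of the range of the diet. Such gaps were looked for in 28 groups of 5 libraries, of which chance alone flags about 1 in 20.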

How the results depend on the processing

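The count of genes called between the diets, 17, was 7 without a filter, 7 without the variance trend, 11 with same-numbered libraries as a replicate block, 8 in males only and 0 in females only (502 at an unadjusted limma p under 0.05), and 5 to 16 without 1 library (5 without control male 2, 6 without PLX5622 male 2, 7 without control male 1 and 9 without control female 2, PLX5622 male 1 or PLX5622 female 1). Members called, 0, were 2 with library weights (Fasn and Elovl5), 1 with voom on recovered reads (Fasn), 1 at a threshold of 0.1 (Elovl5) and 0 in each fit without 1 library. Fasn, Scd1, Scd2, Elovl1, Elovl5, Elovl6 and Fads1 kept their sign in every setting in which they were tested. With a mean TPM of at least 5, Elovl6 was not tested. Signs turned only for Acly, Acaca and Fads2, whose fold changes with all 10 libraries were near 0. Acly was -0.0103 in males only and -0.0313 to 0.0775 without 1 library. Acaca was 0.0900 without both PLX5622 female 2 and PLX5622 male 3, and -0.106 to 0.0280 without 1 library. Fads2 was the least stable, from -0.28 in females only to 0.43 at the highest over the other alternatives, and -0.14 to 0.22 without 1 library. The cause was not tested. Pair differences cannot be called where few libraries remain, since the smallest exact p is 0.1 in males and 0.333 in females. Scd1 minus Scd2 was -0.66 in males and -0.35 in females. Elovl6 minus Elovl5 was 0.61 and 0.58, and Fasn minus Scd1 1.25 and 1.25, both of them descriptions only. In the same order, the pairs were -0.53, 0.60 and 1.25 as a replicate block (smallest exact p = 0.0625). Scd1 minus Scd2 was -0.22 with a pseudocount of 5. Same-numbered libraries deviated together with r across genes of 0.0309 to 0.19, and 8 of 10 libraries matched their own number best. With 2 females per diet, their deviations from the mean mirror each other. The female pairs therefore share the same r of 0.157, and the matches of the female libraries are not independent of each other. The numbers were not taken as pairs because male 2 lay under 0.1, the level required of every pair, and because the labels name nothing that same-numbered libraries share. Elovl6, Scd1 and Fads2 rest on the fewest reads of the 10, with minima of 49, 88 and 127 per library.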
